A study of Homo sapiens with 48 samples.

Results

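LOXL4, C21orf91, APOE and IFITM1 were followed through 24 lysates of SW480 cells, a human APC-mutant colorectal cancer line. These 4 genes were chosen by their change in the control line: they are among the largest rises when doxycycline (DOX) was added to cells with a non-targeting shRNA. The rule asks whether both eIF2B knockdown lines show the same rise. All 4 genes were found in both deposited tables, among 11145 genes in the table of ribosome-protected fragments (RPFs) and 11947 in the table of total cytoplasmic RNA, with 10836 genes in both. The shCTRL values below are therefore a description with no test, and every test comes from the 16 RPF and 16 total RNA libraries of the knockdown lines, which the rule did not use.

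The cells carried a lentiviral, DOX-inducible shRNA: shCTRL (non-targeting), shEIF2B1 against eIF2Bα, or shEIF2B4 against eIF2Bδ. Cells of each line grew for 5 days in DOX at 1 µg/ml (+DOX) or in the DMSO vehicle (-DOX). The lines are pools of selected cells rather than single clones, and each target was depleted by 1 hairpin. In every line DOX and the induction of a hairpin go together, and untransduced SW480 cells with DOX were not analysed here, so an effect of DOX itself and an effect of switching on a hairpin cannot be told apart. The 4 replicates of each of the 6 groups were taken in separate weeks, and replicate 3 holds joined reads of a second sequencing run. Each lysate gave 1 RPF and 1 total RNA library, 48 in all. Values are the regularized log2 values (rlog) of the authors' DESeq2 runs, made separately for the 2 tables. The rlog pulls differences of thinly covered genes towards 0, levels are not per length and so are compared within a gene only, and the number of reads behind a value is unknown.

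The 4 genes have separate known roles. LOXL4 is a secreted copper-dependent amine oxidase of the lysyl oxidase family, whose members crosslink collagen and elastin in the extracellular matrix. APOE is a secreted apolipoprotein that carries cholesterol and other lipids to receptors of the LDL receptor family, and its gene is a known target of the liver X receptors (LXR). IFITM1 is a small membrane protein induced by interferon that restricts the entry of enveloped viruses, and it has the close paralogs IFITM2 and IFITM3. C21orf91, also known as EURL, encodes a cytoplasmic protein that has been linked to neural progenitor development. In Tet-on systems DOX binds a bacterial-derived transactivator and thereby turns on the hairpin, and as a tetracycline it also inhibits mitochondrial ribosomes at sufficient doses. None of the 13 protein genes of the mitochondrial genome is in either table, so their output was not analysed here.

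Each targeted gene was lower with DOX in its own line. In the total RNA of shEIF2B1, EIF2B1 stood at 8.19, 8.21, 8.25 and 8.38 -DOX and 7.68, 7.49, 7.10 and 7.24 +DOX in weeks 1 to 4. EIF2B4 in the total RNA of shEIF2B4 stood at 6.88, 7.20, 7.42 and 7.24 -DOX and 6.64, 6.68, 6.47 and 6.66 +DOX. Both fell without overlap, by log2 changes of -0.88 (standard error 0.10, limma adjusted p = 8.66e-06) and -0.57 (standard error 0.10, limma adjusted p = 0.000461). Uninduced shEIF2B1 had less EIF2B1 total RNA than uninduced shEIF2B4 (-0.44, limma adjusted p = 0.049). Mean EIF2B4 RPFs were 7.77 in uninduced shEIF2B4 against 8.26 in uninduced shEIF2B1, a difference not called (limma adjusted p = 0.109). In total RNA the EIF2B4 means were 7.18 against 7.54. EIF2B4 footprints also fell with DOX in shEIF2B1 (-0.35, limma adjusted p = 0.0403). Of 7 colon epithelial markers 6 were in both tables, with KRT18 among the highest genes (13.13 to 13.85 in total RNA), CDH1 low at 3.88 to 5.16 and VIL1 in neither. None of 5 fibroblast and none of 3 endothelial markers was in a table, and of 5 leukocyte markers only CD68 was, at 4.70 to 5.40 in total RNA. CD68 rose with DOX in the RPFs of both knockdown lines, by 0.38 and 0.60 (limma adjusted p = 0.0582 and 0.0101), and its total RNA changes were 0.14 and 0.18 (limma adjusted p = 0.127 and 0.0538). With DOX, 2 epithelial markers were called higher and 2 lower in the total RNA of shEIF2B1, and 2 higher and 3 lower in that of shEIF2B4. In RPFs 2 were higher and 3 lower in shEIF2B1 and 2 higher and none lower in shEIF2B4, with CDH1 and EPCAM higher in both lines. The median RPF change of the 6 markers was -0.147 in shEIF2B1 and -0.106 in shEIF2B4, beside -0.24 in shCTRL. Of all genes, 20.0% and 12.5% were called higher in the RPFs of the 2 knockdown lines, and 21.1% and 17.8% in total RNA. Their part in the rises below was not tested. The median DOX change over all genes lay between -0.0241 and 0.0129 in every line and table.

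The genes lie on 4 chromosomes of GRCh38 (GENCODE v29 annotation, which differs from the v38 release the authors used). LOXL4 (ENSG00000138131.4) runs from 98247690 to 98268250 on the minus strand of chromosome 10, and C21orf91 (ENSG00000154642.11) from 17788967 to 17819386 on the minus strand of chromosome 21. APOE (ENSG00000130203.10) runs from 44905754 to 44909393 on the plus strand of chromosome 19. IFITM1 (ENSG00000185885.17) runs from 313506 to 315272 on the plus strand of chromosome 11, inside the annotated span of IFITM2 (307631 to 315272, same strand), and IFITM3 follows on the minus strand from 319669 to 327537. Because the genes were higher together in one line, 150 bases around each RefSeq start site are shown, 130 before the start and 20 from it on, read 5′ to 3′ on the gene's strand (GRCh38.p14), with the first listed of the 3 APOE starts. IFITM3 is added as the paralog on the same chromosome. Capitals mark matches to GAAA, 2 bases of any kind and GAAA, the core of the interferon-stimulated response element.
LOXL4, chr10:98268175-98268324, minus strand: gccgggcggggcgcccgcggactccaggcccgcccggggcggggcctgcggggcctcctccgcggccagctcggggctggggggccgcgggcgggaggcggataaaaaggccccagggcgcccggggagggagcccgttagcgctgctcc
C21orf91, chr21:17819337-17819486, minus strand: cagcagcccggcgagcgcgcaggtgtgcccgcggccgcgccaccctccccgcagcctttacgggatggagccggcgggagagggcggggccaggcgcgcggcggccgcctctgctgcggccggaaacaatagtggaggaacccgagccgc
APOE, chr19:44905666-44905815, plus strand: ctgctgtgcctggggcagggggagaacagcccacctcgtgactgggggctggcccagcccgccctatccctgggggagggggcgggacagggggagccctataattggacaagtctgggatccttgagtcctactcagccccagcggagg
IFITM1, chr11:313910-314059, plus strand: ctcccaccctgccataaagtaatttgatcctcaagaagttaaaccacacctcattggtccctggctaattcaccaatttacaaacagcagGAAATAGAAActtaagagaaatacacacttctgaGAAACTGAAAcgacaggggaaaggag
IFITM3, chr11:320841-320990, minus strand: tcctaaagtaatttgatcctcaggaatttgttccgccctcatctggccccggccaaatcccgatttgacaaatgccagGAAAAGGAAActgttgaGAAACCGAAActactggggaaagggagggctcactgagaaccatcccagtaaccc
The element occurs at 2 positions in IFITM1 and at 2 in IFITM3, and in none of the promoters of the other genes shown. Over both strands it is held by 3.57% of 35116 RefSeq promoters of 300 bases (250 before and 50 after the start). A further 4 motifs were searched in the same windows: the LXR element, AGGTCA repeated after 4 bases of any kind (0.0199% of promoters), the hypoxia response element ACGTG (21.4%), the TATA box TATAAA (11.5%) and the E-box CACGTG (7.26%), whose letters contain ACGTG. None of these letters is in the windows of the 4 genes or of IFITM3, which says nothing of the factors that act there.

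In shCTRL, the values that chose the genes placed LOXL4 first and C21orf91 second of all genes in both tables by the mean change from -DOX to +DOX. APOE was number 3 in RPFs and number 7 in total RNA, and IFITM1 was number 19 in RPFs and number 3 in total RNA. Total RNA changes near the lower edge were 0.74 for APOE and then 0.73 for CEMIP and 0.73 for EEF1A2. RPF changes near the lower edge were 0.79 for IFITM1 and then 0.78 for BRD3, 0.77 for SNED1 and 0.77 for SULT1A1. A further 3 genes ranked between IFITM1 and APOE in total RNA: RP11-644F5.10 (0.98), NUPR1 (0.75) and SLC16A4 (0.74). For all 4 genes the 4 shCTRL +DOX libraries lay above the 4 -DOX libraries in both tables. This pattern was held by 2.27% of all genes in RPFs and 3.78% in total RNA, from which nothing is read, since the genes were chosen on this contrast.

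LOXL4, the lysyl oxidase family member, rose with DOX in both knockdown lines, in ribosome footprints and in total RNA. In shCTRL its RPF level was 10.49, 9.81, 10.08 and 9.47 -DOX and 11.26, 11.93, 11.90 and 11.09 +DOX in weeks 1 to 4. The RPF level in shEIF2B1 was 9.89, 9.12, 9.70 and 9.09 -DOX and 11.47, 11.30, 11.77 and 10.86 +DOX. The RPF level in shEIF2B4 was 10.44, 9.23, 9.23 and 8.97 -DOX and 10.96, 10.89, 10.62 and 10.00 +DOX. With DOX the level was higher in all 12 pairs, and only in shEIF2B4 did the groups overlap, because the week 1 -DOX library was above the week 4 +DOX library. In total RNA, LOXL4 stood at 9.32, 9.12, 8.87 and 8.95 -DOX and 10.01, 10.66, 10.66 and 10.41 +DOX in shCTRL. It stood at 9.06, 8.88, 8.91 and 8.90 -DOX and 10.27, 10.63, 10.61 and 10.21 +DOX in shEIF2B1. For shEIF2B4 the total RNA values were 9.35, 8.84, 8.88 and 8.78 -DOX and 9.82, 10.13, 9.89 and 9.67 +DOX. No +DOX library overlapped the -DOX libraries of its line in total RNA. The RPF change of LOXL4 was 1.90 in shEIF2B1 (standard error 0.17, 3.73-fold, limma adjusted p = 2.47e-07) and 1.15 in shEIF2B4 (standard error 0.17, 2.22-fold, limma adjusted p = 0.000116), against 1.58 ± 0.58 (SD of the weekly changes, n = 4, 2.99-fold) in shCTRL. In total RNA the change was 1.49 in shEIF2B1 (standard error 0.12, 2.81-fold, limma adjusted p = 1.32e-07) and 0.92 in shEIF2B4 (standard error 0.12, 1.89-fold, limma adjusted p = 2.89e-05), against 1.37 ± 0.47 (SD of the weekly changes, n = 4, 2.59-fold) in shCTRL. In pooled cultures such as these, more RNA in each cell and a larger share of cells with the gene on cannot be told apart.

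**Figure D1:**
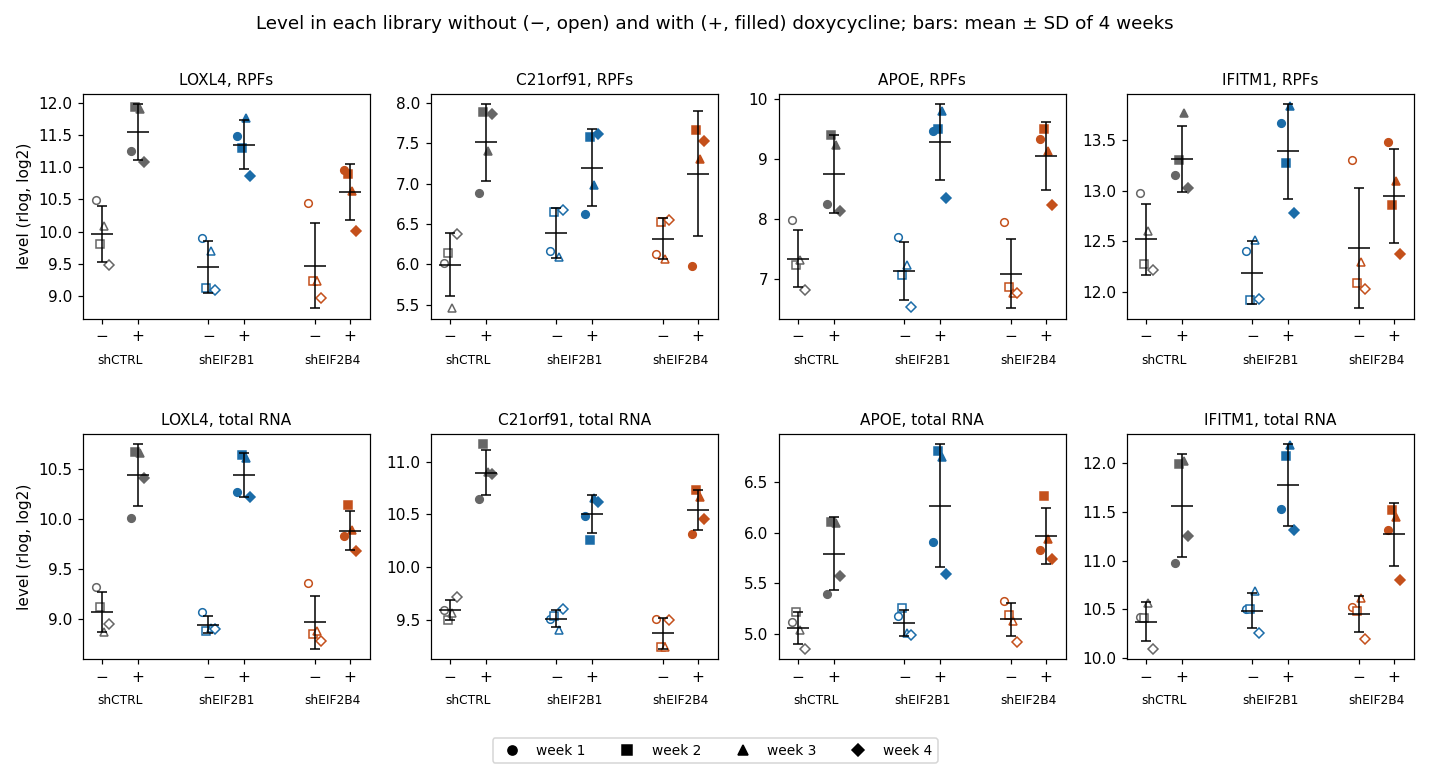
Level of LOXL4, C21orf91, APOE and IFITM1 in each library (vertical axes, rlog on a log2 scale, not starting at 0), RPFs above and total RNA below, for shCTRL, shEIF2B1 and shEIF2B4 without (open) and with (filled) DOX. Symbols are weeks and bars are the mean ± SD of 4 weeks. In total RNA the +DOX libraries lie above the -DOX libraries of their line in all panels, for example 10.01 to 10.66 against 8.87 to 9.32 for LOXL4 in shCTRL.

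The other lysyl oxidases were looked up as paralogs of LOXL4. LOX, which crosslinks collagen and is the founding member of the family, had RPF changes of -0.20, -0.13, 0.37 and 0.12 in weeks 1 to 4 of shCTRL, on both sides of 0. It rose in the RPFs of both knockdown lines, by 1.66 in shEIF2B1 (standard error 0.13, 3.15-fold, limma adjusted p = 2.89e-08) and 1.18 in shEIF2B4 (standard error 0.13, 2.26-fold, limma adjusted p = 2.19e-06). In total RNA LOX rose by 1.28 in shEIF2B1 (standard error 0.11, 2.43-fold, limma adjusted p = 5.35e-07) and 0.96 in shEIF2B4 (standard error 0.11, 1.94-fold, limma adjusted p = 1.49e-05), with a mean of 0.046 in shCTRL. LOXL1 rose in the RPFs of both lines (0.65 and 0.48, limma adjusted p = 0.0017 and 0.0233). LOXL2 had RPF changes of -0.048 and -0.13 (limma adjusted p = 0.763 and 0.419), and its total RNA fell in shEIF2B4 (-0.29, limma adjusted p = 0.014). LOXL3 passed in neither line. None of the 2239 windows of 30 bases in the LOXL4 coding sequence occurs in a protein-coding transcript of another gene, so footprints of that length can be assigned to LOXL4 alone.

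C21orf91 rose in both knockdown lines as well, but its footprint change was the smallest of the 4 genes in shEIF2B1. The shCTRL RPF level of C21orf91 was 6.02, 6.14, 5.45 and 6.38 -DOX and 6.88, 7.89, 7.41 and 7.87 +DOX in weeks 1 to 4. In shEIF2B1 the C21orf91 RPF level was 6.16, 6.65, 6.09 and 6.68 -DOX and 6.63, 7.58, 6.98 and 7.62 +DOX. In shEIF2B4 the C21orf91 RPF level was 6.13, 6.53, 6.06 and 6.55 -DOX and 5.98, 7.66, 7.31 and 7.53 +DOX. Week 1 of shEIF2B4 was the single pair of all 4 genes, both tables and 3 lines in which the +DOX library was below its -DOX partner, and in both knockdown lines the RPF groups overlapped through week 1. Total RNA of C21orf91 was 9.59, 9.50, 9.57 and 9.72 -DOX and 10.64, 11.16, 10.90 and 10.88 +DOX in shCTRL. Its total RNA was 9.51, 9.53, 9.40 and 9.60 -DOX and 10.48, 10.26, 10.66 and 10.62 +DOX in shEIF2B1. In shEIF2B4 the total RNA values were 9.50, 9.25, 9.25 and 9.50 -DOX and 10.32, 10.73, 10.66 and 10.46 +DOX. In total RNA the +DOX and -DOX groups did not overlap in any line, and the lowest +DOX value was 10.26. The RPF change of C21orf91 was 0.81 in shEIF2B1 (standard error 0.17, 1.75-fold, limma adjusted p = 0.00159) and 0.80 in shEIF2B4 (standard error 0.17, 1.75-fold, limma adjusted p = 0.00338), against 1.52 ± 0.48 (SD of the weekly changes, n = 4, 2.86-fold) in shCTRL. Without the replicate block the adjusted p of these 2 RPF changes was 0.137 and 0.233. The total RNA change was 0.99 in shEIF2B1 (standard error 0.11, 1.99-fold, limma adjusted p = 4.17e-06) and 1.17 in shEIF2B4 (standard error 0.11, 2.25-fold, limma adjusted p = 6.84e-07), against 1.30 ± 0.27 (SD of the weekly changes, n = 4, 2.46-fold) in shCTRL. Uninduced RPF levels of C21orf91 averaged 5.995 ± 0.39 in shCTRL, 6.39 ± 0.31 in shEIF2B1 and 6.32 ± 0.26 in shEIF2B4 (SD, n = 4 each).

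APOE had the largest footprint rise of the 4 genes in both knockdown lines. In shCTRL the APOE RPF level was 7.98, 7.25, 7.31 and 6.83 -DOX and 8.25, 9.39, 9.22 and 8.14 +DOX in weeks 1 to 4. The APOE RPF level in shEIF2B1 was 7.71, 7.08, 7.24 and 6.54 -DOX and 9.47, 9.49, 9.79 and 8.36 +DOX. For shEIF2B4 it was 7.96, 6.88, 6.78 and 6.77 -DOX and 9.34, 9.50, 9.13 and 8.24 +DOX. The +DOX libraries lay above all -DOX libraries in each line, with the narrowest gap in shCTRL (7.98 against 8.14) and a wider one in shEIF2B1 (7.71 against 8.36). APOE total RNA was low, at 5.12, 5.22, 5.04 and 4.85 -DOX and 5.40, 6.10, 6.10 and 5.58 +DOX in shCTRL. In shEIF2B1 it was 5.18, 5.26, 5.01 and 4.99 -DOX and 5.91, 6.81, 6.75 and 5.59 +DOX. In shEIF2B4 it was 5.32, 5.19, 5.13 and 4.92 -DOX and 5.83, 6.37, 5.94 and 5.74 +DOX. These groups did not overlap either, and the +DOX values of weeks 2 and 3 were the 2 highest in every line. The RPF change of APOE was 2.13 in shEIF2B1 (standard error 0.19, 4.39-fold, limma adjusted p = 1.84e-07) and 1.95 in shEIF2B4 (standard error 0.19, 3.88-fold, limma adjusted p = 4.9e-07), against 1.41 ± 0.84 (SD of the weekly changes, n = 4, 2.66-fold) in shCTRL. In total RNA it was 1.16 in shEIF2B1 (standard error 0.15, 2.23-fold, limma adjusted p = 3.94e-05) and 0.83 in shEIF2B4 (standard error 0.15, 1.77-fold, limma adjusted p = 0.001), against 0.74 ± 0.33 (SD of the weekly changes, n = 4, 1.67-fold) in shCTRL. A mean level of 5.06 to 6.27 in total RNA is low for that table, whose library medians ran from 7.85 to 7.92, and the part of the rlog, which narrows changes of low genes, in the size of its total RNA change was not tested. Its coding sequence shares none of 922 windows of 30 bases with another gene's protein-coding transcript.

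IFITM1 rose in both knockdown lines, by values that ran from 0.52 to 1.29. Its RPF level in shCTRL was 12.98, 12.27, 12.61 and 12.22 -DOX and 13.15, 13.31, 13.77 and 13.02 +DOX in weeks 1 to 4. Its RPF level in shEIF2B1 was 12.40, 11.92, 12.52 and 11.93 -DOX and 13.66, 13.27, 13.83 and 12.78 +DOX. Its RPF level in shEIF2B4 was 13.30, 12.09, 12.30 and 12.03 -DOX and 13.48, 12.85, 13.09 and 12.37 +DOX. The groups of shCTRL and shEIF2B1 did not overlap, whereas in shEIF2B4 the week 1 -DOX library (13.30) was above 3 of the 4 +DOX libraries. IFITM1 total RNA was 10.42, 10.41, 10.57 and 10.10 -DOX and 10.98, 11.99, 12.02 and 11.26 +DOX in shCTRL. It was 10.50, 10.51, 10.69 and 10.26 -DOX and 11.53, 12.07, 12.18 and 11.32 +DOX in shEIF2B1. It was 10.53, 10.48, 10.62 and 10.19 -DOX and 11.31, 11.52, 11.45 and 10.80 +DOX in shEIF2B4. In total RNA the groups were apart in each of the 3 lines. The RPF change of IFITM1 was 1.20 in shEIF2B1 (standard error 0.15, 2.29-fold, limma adjusted p = 1.2e-05) and 0.52 in shEIF2B4 (standard error 0.15, 1.43-fold, limma adjusted p = 0.0218), against 0.79 ± 0.44 (SD of the weekly changes, n = 4, 1.73-fold) in shCTRL. The shEIF2B4 RPF call was lost without week 2 (limma adjusted p = 0.204) and without the replicate block (limma adjusted p = 0.459). In total RNA the change was 1.29 in shEIF2B1 (standard error 0.10, 2.44-fold, limma adjusted p = 1.16e-07) and 0.82 in shEIF2B4 (standard error 0.10, 1.76-fold, limma adjusted p = 1.73e-05), against 1.19 ± 0.46 (SD of the weekly changes, n = 4, 2.28-fold) in shCTRL.

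Stretches of the IFITM1 coding sequence also occur in transcripts annotated to its paralogs, and their part in the IFITM1 signal was not tested. Of the 346 windows of 30 bases in the IFITM1 coding sequence, 219 (63.3%) occur unchanged in an annotated protein-coding transcript of IFITM2 or IFITM3. Any annotated transcript was counted, and the span of IFITM2 covers IFITM1, so an IFITM2 transcript may hold exons of IFITM1 itself. The authors aligned footprints to 1 transcript per gene. The share of footprints that could not be assigned to 1 gene is therefore unknown, and the values of the 3 genes are uncertain to that extent. IFITM2 and IFITM3 share 22.9% and 41.1% of their own windows with the family. Measured as deposited, IFITM2 rose in RPFs by 0.82 in shEIF2B1 (standard error 0.15, 1.76-fold, limma adjusted p = 0.000451) and 0.37 in shEIF2B4 (standard error 0.15, 1.29-fold, limma adjusted p = 0.0943). Its total RNA changes were 0.22 in shEIF2B1 (limma adjusted p = 0.134) and -0.30 in shEIF2B4 (limma adjusted p = 0.0529), the latter a fall. IFITM3 rose in shEIF2B1 in RPFs (0.42, limma adjusted p = 0.0179) and total RNA (0.34, limma adjusted p = 0.015). In shEIF2B4 the IFITM3 changes were 0.32 in RPFs and -0.12 in total RNA (limma adjusted p = 0.101 and 0.417). In shCTRL the total RNA of IFITM2 was higher with DOX by 0.15, 0.71, 0.55 and 0.20 and that of IFITM3 by 0.054, 0.81, 0.34 and 0.19 in weeks 1 to 4, against 0.55, 1.58, 1.46 and 1.16 for IFITM1. The 2 paralogs, which lie beside IFITM1, had total RNA changes of at most 0.34 in the knockdown lines where IFITM1 had 0.82 to 1.29.

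Over both knockdown lines and both tables, all 16 tests of the 4 genes were called higher at a Benjamini-Hochberg adjusted p under 0.1, and all 16 also under 0.05. Many genes changed with DOX in these lines. In RPFs 20.0% of all genes were called higher in shEIF2B1 and 12.5% in shEIF2B4, and in total RNA 21.1% and 17.8%. The genes called higher in both lines were 10.0% of all genes in RPFs and 11.8% in total RNA. For the 4 genes the rise amounted to 1.75-fold to 4.39-fold in shEIF2B1 and 1.43-fold to 3.88-fold in shEIF2B4, beside 1.67-fold to 2.99-fold in shCTRL. The +DOX libraries lay above all -DOX libraries for 3 of 4 genes in the RPFs of shEIF2B1 (8.20% of all genes) and for 1 of 4 in those of shEIF2B4 (4.59% of all genes). In total RNA this held for 4 of 4 in shEIF2B1 (13.8% of all genes) and 4 of 4 in shEIF2B4 (14.6% of all genes). Of the 64 weekly changes of the 4 genes in the knockdown lines, 63 were above 0. Both tables come from the same lysates and the lines share weeks, so these are not 64 separate observations. Such changes were not counted over all genes.

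The genes ranked lower among all genes in the knockdown lines than in shCTRL, on whose ranks they were chosen. In RPFs of shEIF2B1 they ranked 17 (APOE), 21 (LOXL4), 105 (IFITM1) and 296 (C21orf91) from the highest rise of 11145 genes, and in shEIF2B4 they ranked 23 (APOE), 99 (LOXL4), 236 (C21orf91) and 572 (IFITM1). In total RNA of shEIF2B1 the ranks were 16 (LOXL4), 31 (IFITM1), 40 (APOE) and 64 (C21orf91) of 11947 genes. In total RNA of shEIF2B4 they were 46 (C21orf91), 91 (LOXL4), 116 (APOE) and 118 (IFITM1).

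**Figure D2:**
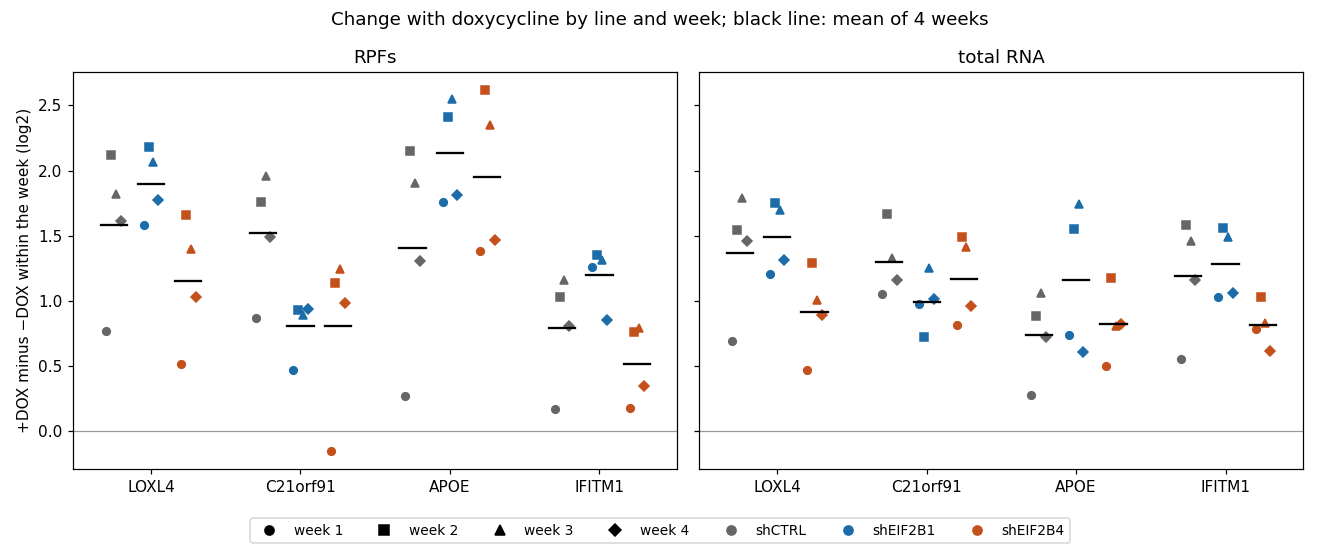
Change with DOX within each week (vertical axis, +DOX minus -DOX, log2) for LOXL4, C21orf91, APOE and IFITM1, in RPFs (left) and total RNA (right), with the 3 lines in colour, weeks as symbols and the mean of 4 weeks as a black line. All points but the RPF value of C21orf91 in week 1 of shEIF2B4 lie above 0, and week 1 of shCTRL is the lowest of its 4 weeks for each gene in both panels.

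The changes of the knockdown lines were set beside those of shCTRL. Since the rule chose the largest rises of shCTRL, which favours differences below 0, the differences from shCTRL are given by week with no test. Both lines are set against the same shCTRL weeks, so their counts of weeks are not separate. Such counts were not made over all genes. The APOE footprint change was above that of shCTRL in each week in both knockdown lines, by 1.49, 0.27, 0.64 and 0.51 in shEIF2B1 (mean 0.72). The same difference for shEIF2B4 was 1.11, 0.47, 0.44 and 0.16 (mean 0.55). The C21orf91 footprint change was below that of shCTRL in 4 of 4 weeks in both lines, with mean differences of -0.71 in shEIF2B1 and -0.71 in shEIF2B4. The RPF change of LOXL4 minus that of shCTRL was 0.82, 0.058, 0.24 and 0.17 in shEIF2B1 and -0.25, -0.46, -0.42 and -0.58 in shEIF2B4, so above shCTRL in 4 of 4 weeks in the one and below it in 4 of 4 in the other. For IFITM1 it was 1.09, 0.32, 0.15 and 0.048 in shEIF2B1 and 0.0059, -0.27, -0.37 and -0.46 in shEIF2B4. In total RNA the mean differences from shCTRL in shEIF2B1 were 0.12 for LOXL4, -0.31 for C21orf91, 0.42 for APOE and 0.10 for IFITM1. Those of shEIF2B4 in total RNA were -0.46 for LOXL4, -0.13 for C21orf91, 0.091 for APOE and -0.37 for IFITM1. By week, the C21orf91 total RNA difference in shEIF2B1 was -0.075, -0.94, -0.076 and -0.14, so week 2 carried its mean, which was -0.098 without that week. The total RNA difference was above 0 in 2 of 4 weeks for LOXL4 and IFITM1 and in 3 of 4 for APOE in shEIF2B1. In shEIF2B4 it was above 0 in 3 of 4 weeks for APOE and in 1 of 4 for C21orf91 and IFITM1. In both tables the LOXL4 change of shEIF2B4 was below that of shCTRL in 4 of 4 weeks.

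The 2 knockdown lines were compared directly, since the rule used neither. The RPF change of LOXL4 in shEIF2B1 minus that in shEIF2B4 was 0.75 (95% interval 0.24 to 1.25, limma adjusted p = 0.791), and the difference was above 0 in 4 of 4 weeks. For LOXL4 total RNA it was 0.58 (95% interval 0.23 to 0.92, limma adjusted p = 0.328), also in 4 of 4 weeks. IFITM1 had a difference of 0.68 (95% interval 0.24 to 1.12, limma adjusted p = 0.791) in RPFs and of 0.47 (95% interval 0.18 to 0.76, limma adjusted p = 0.328) in total RNA, again in 4 of 4 weeks each. For APOE it was 0.18 (95% interval -0.37 to 0.73, limma adjusted p = 0.891) in RPFs and 0.33 (95% interval -0.13 to 0.79, limma adjusted p = 0.538) in total RNA. For C21orf91 it was 0.004 (95% interval -0.50 to 0.51, limma adjusted p = 0.998) in RPFs and -0.18 (95% interval -0.49 to 0.14, limma adjusted p = 0.627) in total RNA. None of the differences of the 4 genes passed the adjusted threshold, and 4 of 12 (TE included) had an unadjusted p under 0.05, which were those of LOXL4 and IFITM1 in RPFs and total RNA. Over all genes 0% were called between the lines by limma in RPFs, total RNA or TE, while 646, 1346 and 518 genes had an unadjusted p under 0.05 (5.8%, 11.3% and 4.78% of the genes tested). In RPFs this unadjusted count ran from 276 without week 2 to 1709 without week 3 and was 128 without the replicate block. In total RNA it was 760 without week 2, and in TE it was 287 without week 2 and 128 without the block. For the RPFs of APOE and C21orf91 the intervals reach 0.73 and 0.51 on the upper side, so a like rise in both lines is not shown.

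Uninduced levels of the 4 genes did not pass a test between the knockdown lines. Uninduced shEIF2B1 minus uninduced shEIF2B4 lay between -0.24 (IFITM1, RPFs) and 0.14 (C21orf91, total RNA), with 95% intervals reaching from -0.55 to 0.44 over the 8 tests and limma adjusted p from 0.34 to 0.965. In all, 0.673% of genes were called for this difference in RPFs and 1.72% in total RNA.

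Translation efficiency (TE), here the rlog RPF value less the rlog total RNA value within a lysate, was called higher for APOE in both knockdown lines. The weekly log2 TE change of APOE was -0.0055, 1.26, 0.85 and 0.59 in shCTRL, 1.02, 0.87, 0.80 and 1.21 in shEIF2B1 and 0.88, 1.44, 1.54 and 0.65 in shEIF2B4. It rose by 0.97 in shEIF2B1 (standard error 0.15, 1.96-fold, limma adjusted p = 0.000839) and 1.13 in shEIF2B4 (standard error 0.15, 2.19-fold, limma adjusted p = 0.000151). Without the replicate block neither TE change of APOE was called (limma adjusted p = 0.28 and 0.358). Both tables have their own rlog, and the low total RNA level of APOE bears on this value as given above. LOXL4 rose in TE in shEIF2B1 (0.41, standard error 0.12, limma adjusted p = 0.0604), a call lost at a threshold of 0.05, without the replicate block and without week 1, 2 or 4 (limma adjusted p = 0.121, 0.199 and 0.306). In shEIF2B4 its TE change was 0.24 (limma adjusted p = 0.323). The TE changes of C21orf91 were -0.19 and -0.36 (limma adjusted p = 0.557 and 0.25), beside a mean of 0.22 in shCTRL. For IFITM1 they were -0.09 and -0.30 (limma adjusted p = 0.752 and 0.261), and in shCTRL the IFITM1 TE was lower with DOX in 4 of 4 weeks (mean -0.40). Of 8 TE tests of the 4 genes, 3 were called higher and none lower, where 8.83% of all genes were called in either direction in shEIF2B1 and 3.36% in shEIF2B4.

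Week 1 held most of the smallest changes. Of the 24 combinations of gene, line and table, week 1 had the smallest change in 20, which were 8 of 8 in shCTRL, 5 of 8 in shEIF2B1 and 7 of 8 in shEIF2B4. The largest change fell in week 2 in 14 combinations and in week 3 in 9. These are not 24 separate observations, since both tables come from the same lysates and the lines share weeks. The combinations of shCTRL hold the values that chose the genes. How often week 1 was smallest over all genes was not counted. The -DOX libraries of week 1 had the highest RPF levels of LOXL4 and of APOE in 3 of 3 lines, of IFITM1 in 2 of 3, and of C21orf91 in none of 3. For APOE these were 7.98, 7.71 and 7.96 in shCTRL, shEIF2B1 and shEIF2B4, where the other weeks lay between 6.54 and 7.31. Without week 1 the mean RPF change of APOE was 1.79 in shCTRL, 2.26 in shEIF2B1 and 2.15 in shEIF2B4. What set week 1 apart was not tested.

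The rises of the 4 genes were set beside the other large rises of shCTRL. Of all genes 10.0% in RPFs and 11.8% in total RNA were called higher in both knockdown lines. Of the 20 genes with the largest shCTRL rise in RPFs, which include the 4 genes, 20 were called higher in both. Their median change was 0.93 in shCTRL, 1.28 in shEIF2B1 and 0.93 in shEIF2B4. Of the 20 with the largest rise in total RNA, 15 were called higher in both, with medians of 0.68, 0.97 and 0.82. In the RPF list, FAM20C (1.09 in shCTRL) was called at 1.54 and 1.39 and SLC16A4 (1.08) at 2.22 and 2.09. Further down, ASNS, the asparagine synthetase and a known target of ATF4 (0.85 in shCTRL), was called at 1.69 and 1.80. NUPR1, a stress-induced transcriptional regulator (0.83 in shCTRL), was called at 1.89 and 1.87. A part of ATF4 in the shCTRL rises was not tested.

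**Figure D3:**
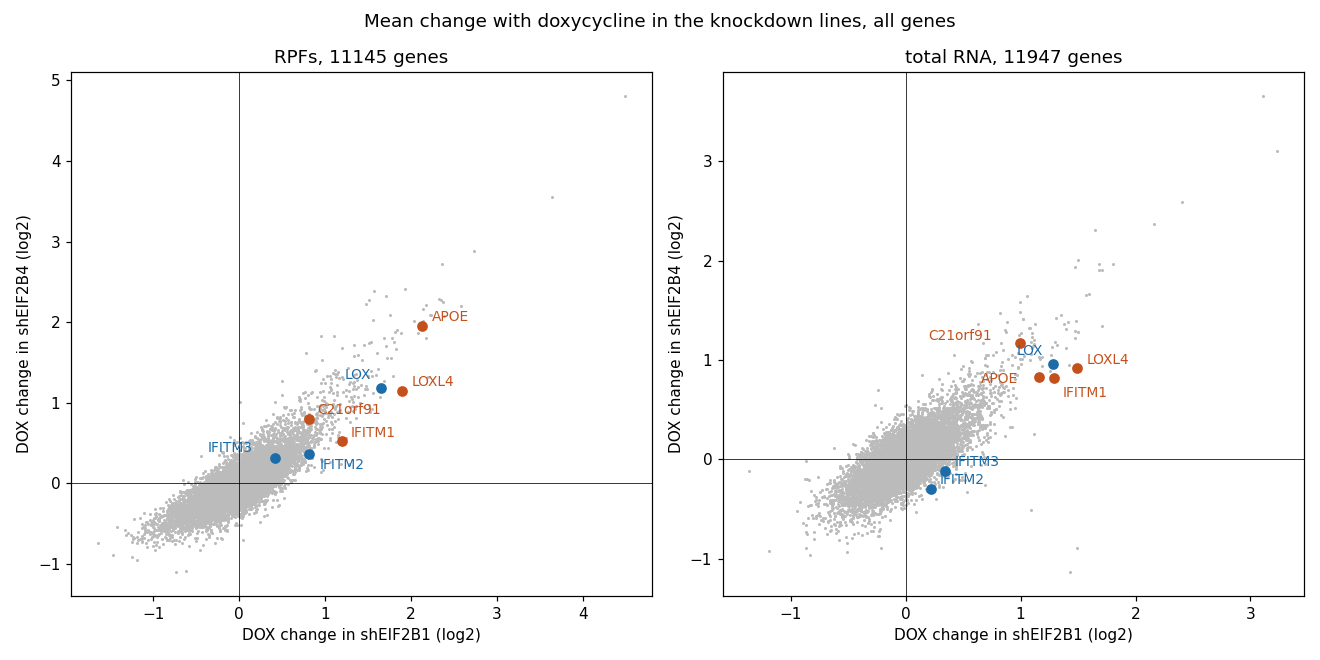
Mean DOX change in shEIF2B1 (horizontal axis, log2) and in shEIF2B4 (vertical axis, log2) for every gene, RPFs on the left (11145 genes) and total RNA on the right (11947 genes), with the 4 genes in orange and 3 paralogs in blue. The 4 genes and LOX lie in the upper right of both panels, and IFITM2 and IFITM3 lie near the main cloud in total RNA.

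Genes most like each of the 4 were sought over the 6 mean DOX changes (3 lines, RPFs and total RNA) by the root mean square difference among 10836 genes. Nearest to APOE were HLA-DQB1 (0.294), NUPR1 (0.346) and KLK7 (0.362), and nearest to LOXL4 were FAM20C (0.428), APOE (0.457) and NUPR1 (0.515). For C21orf91 they were IFITM1 (0.404), ATP9A (0.445) and SLC25A36 (0.483), and for IFITM1 ATP9A (0.353), MRC2 (0.381) and ITM2C (0.385). The distances use the shCTRL changes that chose the genes and are a description. HLA-DQB1, nearest to APOE, had RPF changes of 0.95, 2.15 and 2.01 in shCTRL, shEIF2B1 and shEIF2B4.

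The nearest measured genes on the same chromosomes were counted too. Of the 24 nearest measured protein-coding genes, 3 on either side of each gene, 2 (8.33%) were called higher in total RNA in both knockdown lines, against 11.8% of all genes. These were USP25 and CXADR, which lie 1908.9 kb and 195.4 kb from C21orf91, whose nearest measured genes on the other side start 7766.3 kb away. TOMM40, which ends 2.1 kb from APOE, fell in both lines (-0.27 and -0.54, limma adjusted p = 0.0404 and 0.000791), and APOC1, which starts 4.9 kb from APOE, had changes of 0.10 and -0.094 (limma adjusted p = 0.491 and 0.556). R3HCC1L, 2.8 kb from LOXL4, had changes of -0.11 and -0.0012 (limma adjusted p = 0.261 and 0.993).

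Pathway genes around APOE were counted from lists without the 4 genes. Of 16 measured genes of LXR signalling and lipid efflux, 9 were called higher and 1 lower in the RPFs of shEIF2B1. In those of shEIF2B4, 6 were higher and 1 lower. Of all genes 20.0% and 12.5% were called higher in the RPFs of the 2 lines, and 23.9% and 12.3% lower. The largest rises were in sterol exporters. ABCG1, which passes cholesterol to lipoproteins, rose by 2.39 and 2.07 (limma adjusted p = 1.84e-07 and 1.02e-06) in RPFs, and ABCA1, which loads lipid-poor apolipoproteins, by 2.20 and 1.32 (limma adjusted p = 1.4e-06 and 0.000484). PLTP, which transfers phospholipids between lipoproteins, rose by 0.92 and 0.53 (limma adjusted p = 6.14e-05 and 0.0111), and LPL, which hydrolyses their triglycerides, by 0.78 and 0.57 (limma adjusted p = 0.000255 and 0.00616). SCD, a fatty acid desaturase, fell, with changes of -0.28 and -0.28 (limma adjusted p = 0.0366 and 0.061). The list median was 0.30 and 0.24 in the 2 lines and 0.072 in shCTRL, beside -0.0195, -0.0241 and 0.0129 for all genes. In total RNA 5 of 16 were higher and 2 lower in each knockdown line, where 21.1% and 17.8% of all genes were called higher. The list median in total RNA was 0.127 in shEIF2B1, 0.0149 in shEIF2B4 and 0.114 in shCTRL. ABCA1 and ABCG1 were also higher with DOX in shCTRL by means of 0.68 and 0.54 in RPFs. Of the 7 genes for APOE receptors and their partners, LRP1, a large endocytic receptor, rose in both lines in RPFs by 1.53 and 0.89 (limma adjusted p = 2.55e-05 and 0.00565), with 0.85 in shCTRL. VLDLR fell in RPFs, with changes of -0.27 and -0.32 (limma adjusted p = 0.0353 and 0.0284). In that list 3 were called higher and 2 lower in the RPFs of shEIF2B1, and 1 and 1 in those of shEIF2B4. The shares of all genes called higher were 20.0% and 12.5%, as above. In total RNA the same list had 2 called higher and 1 lower in shEIF2B1, and 1 higher and 3 lower in shEIF2B4. The total RNA shares of all genes were 21.1% and 17.8% called higher, and 20.4% and 16.7% called lower.

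Around IFITM1, 37 measured interferon-stimulated genes other than IFITM1 held 22 that were called higher and 1 lower in the RPFs of shEIF2B1. In those of shEIF2B4, 17 were higher and 1 lower, and the shares of all genes called higher were 20.0% and 12.5%. In total RNA 42 were measured, of which 21 were higher and 2 lower in shEIF2B1, and 18 and 4 in shEIF2B4. Of all genes 21.1% and 17.8% were called higher in the total RNA of the 2 lines, and 20.4% and 16.7% lower. The largest mean RPF changes called in both lines were those of ISG20, an exonuclease, at 1.27 and 1.43 (limma adjusted p = 6.32e-06 and 1.57e-06), and HLA-B, which presents peptides to T cells, at 1.09 and 1.12 (limma adjusted p = 5.7e-06 and 4.42e-06). IRF9, the DNA-binding part of the interferon-activated ISGF3 complex, rose by 0.81 and 0.94 (limma adjusted p = 0.000288 and 0.00011), and IRF7 by 0.84 and 0.92 (limma adjusted p = 0.000264 and 0.000172). EIF2AK2, the interferon-induced kinase PKR that phosphorylates eIF2α, fell, with changes of -0.65 and -0.37 (limma adjusted p = 0.00166 and 0.0756). The RPF median of the list was 0.36 and 0.32 in the knockdown lines and 0.11 in shCTRL, and in total RNA it was 0.20, 0.15 and 0.10. Of 8 interferon receptors and kinases, 2 were higher in the RPFs of each knockdown line, and none was lower. JAK1, a kinase bound to interferon receptors, rose in both by 0.39 and 0.62 (limma adjusted p = 0.0237 and 0.00277).

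Around LOXL4, 14 measured genes of collagen crosslinking and modification held 6 called higher and 1 lower in the RPFs of shEIF2B1. In those of shEIF2B4 they held 3 and 1. Of all genes 20.0% and 12.5% were called higher in RPFs, and 23.9% and 12.3% lower. Beside LOX and LOXL1 given above, P4HA2, a subunit of the enzyme that hydroxylates prolines in collagen, rose in both lines by 0.38 and 0.38 (limma adjusted p = 0.0082 and 0.0161). Its isoform P4HA1 fell in both, with changes of -0.39 and -0.36 (limma adjusted p = 0.0189 and 0.0498). In total RNA 8 were higher and none lower in shEIF2B1, and 2 higher and 2 lower in shEIF2B4. Among all genes 21.1% and 17.8% were called higher in total RNA, and 20.4% and 16.7% lower. The list median in RPFs was 0.21 in shEIF2B1, 0.0083 in shEIF2B4 and 0.049 in shCTRL, and in total RNA it was 0.21, 0.015 and 0.081. C21orf91 had no list of its own.

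**Figure D4:**
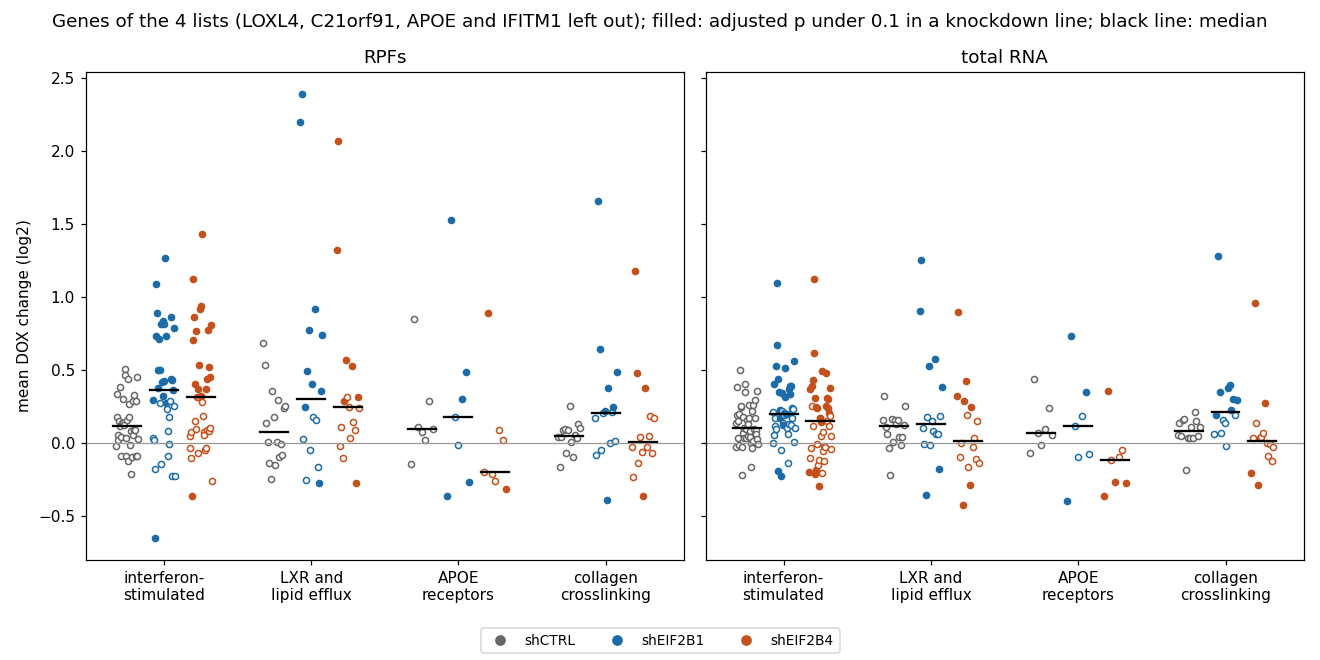
Mean DOX change (vertical axis, log2) of the genes in 4 lists, with RPFs on the left and total RNA on the right and the 3 lines in colour. LOXL4, C21orf91, APOE and IFITM1 are left out, filled points had an adjusted p under 0.1 in that knockdown line, shCTRL was not tested and is drawn open, and black lines are medians. ABCG1 and ABCA1 stand highest among the LXR genes in RPFs, at 2.39 and 2.20 in shEIF2B1.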

How the data were processed

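Ribosome-protected fragments and total cytoplasmic RNA were sequenced from 24 lysates. The deposited values are regularized log2 values that the authors made with DESeq2, separately for the 2 tables. For total RNA the authors aligned reads to the GENCODE protein-coding transcriptome with bowtie2, quantified isoforms with RSEM and chose for every gene its most abundant isoform. Footprint reads were first cleared of rRNA, tRNA and mitochondrial RNA, then aligned to those transcripts, and reads of chosen sizes were kept by custom scripts. The submitters' processing notes also name R 4.3.1, cutadapt 1.18 and SAMtools 1.9. No counts were used here, so the depth per library is unknown and no counting interval could be given.

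The log2 values were fitted with limma 3.58.1 in R 4.3.3 (lmFit, then eBayes with a mean-variance trend) on the 16 libraries of both knockdown lines, with the replicate number as a block. Tests were two-sided, with Benjamini-Hochberg adjustment over all genes and a threshold of 0.1. TE was fitted likewise over 10836 genes. The fit was tested on simulated data. Replicates were taken in separate weeks, and the replicate number marks the week. Same-week libraries deviated together by over 0.1 (correlation) in 20 of 24 pairs for RPFs, 14 of 24 for total RNA and 21 of 24 for TE. The block takes out the shift that the libraries of a week share. The p-values measure the spread that remains between weeks, pooled over both knockdown lines, with 1 pool of cells per line.

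The members, the lists and the tests were chosen with earlier results of these data known. Named genes were the 4 members, their paralogs and targets, the genes that ranked above or just below them in shCTRL, the nearest in pattern or position, and up to 4 list genes called in both lines with the largest mean change. SCD, EIF2AK2 and the marker genes were named after their values were seen. Not every gene that meets these criteria is reported here. Coding sequence windows were read from GENCODE v29 on GRCh38 and promoters from RefSeq on GRCh38.p14. Figures were drawn with matplotlib 3.10.9. Alternatives were no block, no trend, the lowest 25% of genes left out, libraries centred on their median, all 24 libraries of a table, 8 libraries of 1 line, a threshold of 0.05 and leaving out each replicate.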

Additional observations from a re-analysis of the deposited data

Results flagged for a closer look

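Within groups of 4 libraries, 48 groups of the 4 genes were searched for a library far from the others (by Dixon's ratio of the gap to the range), and 2 were found, where chance gives about 1 in 20. APOE footprints in uninduced shEIF2B4 stood at 7.95653 in week 1, with a ratio of 0.909. LOXL4 total RNA in uninduced shEIF2B1 stood at 9.06448 in week 1, with a ratio of 0.854. Both are the highest of their group, and both make the week 1 change smaller.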

How the results depend on the processing

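Of the values of the 4 genes under the alternatives, 550 were counted as kept, 11 lost the call, 1 gained it and 15 changed sign. A tested value was kept if its direction and side of the threshold stayed. The shCTRL changes and the differences from shCTRL have no test. They were counted as kept if they held their sign and moved by less than the SD of the weekly values. These untested values include those that chose the genes. Of the counts of genes called, 70 stayed within 1.5 times and 46 did not. Without the replicate block, C21orf91 RPFs (0.81 in shEIF2B1, 0.80 in shEIF2B4), IFITM1 RPFs in shEIF2B4 (0.52), LOXL4 TE in shEIF2B1 (0.41) and APOE TE (0.97 and 1.13) were no longer called, and the genes called numbered 1301 and 559 in RPFs of the 2 lines, 22 and 16 in TE, and 0 for uninduced RPFs. With all 24 libraries the genes called numbered 1 (RPFs) and 12 (total RNA) between lines, 520 for uninduced RPFs and 639 for TE in shEIF2B4. Without the trend they were 127 and 80 for uninduced RPFs and total RNA and 3 between lines in total RNA. With the lowest 25% left out they were 0, 0 and 6 for the same, and APOE total RNA and C21orf91 TE gave no value. With median centring the uninduced difference was -0.081 for C21orf91 RPFs, -0.11 for APOE RPFs and -0.011 for IFITM1 total RNA, with 0 genes called for uninduced RPFs and 7 between lines in total RNA. At a threshold of 0.05, LOXL4 TE (0.41) was not called, and genes called were 0 and 112 for uninduced RPFs and total RNA and 548 and 175 for TE. In 8 libraries of 1 line TE gave 1857 and 673.

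Leaving out 1 replicate at a time, the genes called ranged from 2814 (without replicate 2) to 4785 in RPFs of shEIF2B1 and from 950 (without replicate 2) to 4002 in those of shEIF2B4, from 2491 to 3682 in total RNA of shEIF2B4, from 211 to 1121 and from 59 to 715 in TE of shEIF2B1 and shEIF2B4, and from 0 to 2619 and from 28 to 109 for uninduced RPFs and total RNA. The 2619 came without replicate 3. Between the lines they ranged from 0 to 1 in total RNA and from 0 to 2 in TE. IFITM1 RPFs in shEIF2B4 ranged from 0.43 to 0.63 and LOXL4 TE in shEIF2B1 from 0.39 to 0.42. The change of shEIF2B1 minus that of shEIF2B4 ranged from -0.20 to 0.12 (C21orf91 RPFs), -0.29 to 0.020 (C21orf91 total RNA), -0.39 to 0.042 (APOE TE) and -0.0072 to 0.32 (IFITM1 TE). Uninduced differences ranged from -0.18 to 0.16 (LOXL4 RPFs), -0.090 to 0.15 (APOE RPFs), -0.39 to -0.018 (IFITM1 RPFs, called without replicate 3 at a limma adjusted p of 0.0751), -0.074 to 0.063 (LOXL4 total RNA) and -0.071 to 0.0012 (APOE total RNA). The shEIF2B1 minus shCTRL change in total RNA ranged from -0.0087 to 0.21 (LOXL4) and -0.027 to 0.16 (IFITM1).

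The causes were not tested. The unknown depth limits what the low total RNA values of APOE can show.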
